A study of Homo sapiens with 8 samples.

Results

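Open chromatin at the genes of the transcription factor AP-1 and at ATF3 was described in H1650 cells, an established lung cancer line of the non-small cell type. The regions at these 7 genes are called AP-1 regions below. The regions studied were those within 7 fixed windows of hg19 around JUN (chr1, 59.15 to 59.35 Mb), JUNB (chr19, 12.88 to 12.93 Mb), JUND (chr19, 18.36 to 18.42 Mb), FOS (chr14, 75.7 to 75.8 Mb), FOSL1 (chr11, 65.64 to 65.69 Mb), FOSL2 (chr2, 28.55 to 28.68 Mb) and ATF3 (chr1, 212.71 to 212.83 Mb). The peaks of 8 ATAC-seq libraries, merged wherever they overlapped or touched, gave 46665 regions, of which 45 overlapped a window: 12 at JUN, 5 at JUNB, 4 at JUND, 5 at FOS, 7 at FOSL1, 4 at FOSL2 and 8 at ATF3. ATAC-seq marks open chromatin by the insertion of sequencing adapters with a transposase. The windows were set by coordinates and not by signal. They can reach beyond the named gene, and no hg19 annotation was used here, so no region is assigned to a promoter, exon or intron, or to a gene rather than to its neighbours. In RefSeq (GRCh38.p14) the protein-coding genes on either side are MYSM1 and FGGY for JUN, HOOK2 and PRDX2 for JUNB, IQCN and LSM4 for JUND, TMED10 and JDP2 for FOS, CCDC85B and C11orf68 for FOSL1, BABAM2 and PLB1 for FOSL2, and NENF and GARIN4 for ATF3. Whether the windows hold parts of these neighbours was not determined.

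The 4 groups, with 2 libraries each, were untreated cells, cells given a non-targeting siRNA pool (siControl), cells given siRNAs that match exon 11a of hMENA (siMena11a) and cells given an siRNA pool against ENAH, the gene of hMENA (siMena). hMENA is an actin regulatory protein, and hMENA11a is its epithelial isoform. All transfected cells received siRNA at 20 nmol/L with a lipid reagent, which the untreated cells did not. All groups came from the same line, with no other genetic change named. The siRNAs act on mRNA, so the peak lists do not check the knockdown. The labels do not say whether the replicates are separate cultures, so the spread between them may be technical. In such bulk libraries, fewer cells with an open region and less opening per cell cannot be told apart.

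AP-1 is a family of dimers of basic leucine zipper proteins. JUN, JUNB and JUND pair with each other or with a FOS protein, whereas FOS, FOSL1 and FOSL2 need a JUN partner to bind DNA stably. JUN and FOS are immediate early genes, which growth factors and stress induce within minutes through factors already present in the cell. ATF3 is a related zipper protein induced by stress, which can pair with JUN or repress as a dimer of its own. These dimers bind the AP-1 site TGANTCA or the longer cyclic AMP response element TGACGTCA, and AP-1 is itself among the factors that bind the JUN promoter. In epithelial cancer cells AP-1 sites are a common feature of distal open chromatin.

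To show where the letters of such motifs lie before some of these genes, 3 of the 7 RefSeq promoters found for 6 of the 7 genes are printed. These 3 are those with a match to a motif searched. FOSL1 had no entry. Each runs for the 250 bases before the start of transcription, 5′ to 3′ on the gene's strand, and capitals mark the match. The coordinates are GRCh38.p14, chr1:58784048-58784297 on the minus strand for JUN, chr19:18281623-18281872 on the minus strand for JUND and chr1:212565157-212565406 on the plus strand for the first of 2 starts of ATF3.
JUN: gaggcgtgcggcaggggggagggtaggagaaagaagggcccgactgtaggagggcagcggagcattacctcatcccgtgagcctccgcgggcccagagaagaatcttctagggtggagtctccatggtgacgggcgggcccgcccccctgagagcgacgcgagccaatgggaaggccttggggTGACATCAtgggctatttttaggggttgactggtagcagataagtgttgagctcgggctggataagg
JUND: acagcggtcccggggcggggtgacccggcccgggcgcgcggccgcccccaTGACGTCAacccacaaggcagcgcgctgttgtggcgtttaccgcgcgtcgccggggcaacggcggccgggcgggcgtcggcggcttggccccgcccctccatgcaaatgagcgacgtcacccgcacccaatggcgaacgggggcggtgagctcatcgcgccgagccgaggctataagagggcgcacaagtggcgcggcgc
ATF3: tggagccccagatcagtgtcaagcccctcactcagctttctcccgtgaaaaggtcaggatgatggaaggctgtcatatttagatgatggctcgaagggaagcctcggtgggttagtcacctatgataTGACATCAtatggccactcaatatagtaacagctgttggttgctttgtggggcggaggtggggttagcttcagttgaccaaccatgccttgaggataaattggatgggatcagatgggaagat

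JUN and ATF3 share the letters TGACATCA, at bases -67 to -60 and -123 to -116 counted from the start. These letters differ in 1 place from TGACGTCA, and 834 of 35116 RefSeq promoters of the same length (2.37%) hold them. The search named this variant for JUN, so the match at JUN cannot count as a finding. The JUND promoter holds the full element TGACGTCA at bases -200 to -193, as do 578 promoters (1.65%). No promoter of the 6 genes holds TGANTCA, which 2308 (6.57%) do. Both strands were searched, and no promoter printed holds more than 1 match, so none overlapped another. A match is a description of the letters, not of binding. The promoters of the 6 genes have a GC content from 44.8% at the second ATF3 start to 74.8% at JUND, and the median over all promoters is 58%. Which listed region holds each promoter was not determined, because the peak lists use another build.

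The libraries differed widely in how much was listed, which bears on every result below. Replicate 1 listed 14678 to 35472 peaks, whereas replicate 2 listed 22424 in untreated cells, 5231 with siControl, 2832 with siMena11a and 1020 with siMena. The background of the whole genome, in tags per position once each tag is extended, was 0.538 to 0.935 in replicate 1 and 1.09 to 2.88 in replicate 2. It was highest, at 2.88, in siMena replicate 2, which has the shortest list. At the 501 regions found in all 8 lists on the assembled chromosomes, the median fold over background was 9.21 to 11.7 in replicate 1, 10.1 in untreated replicate 2 and 4.59 to 6.78 in replicate 2 of the 3 siRNA groups. In those 3 libraries a region that is not listed may thus be open with less enrichment. Within either replicate number, with 1 library a group, the treatments and the differences between libraries cannot be told apart.

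The AP-1 and ATF3 windows were listed about as the rest of the genome was, with siControl replicate 1 as the widest gap. Of the 45 regions, untreated replicates 1 and 2 listed 37 and 22, siControl 36 and 4, siMena11a 38 and 4, and siMena 16 and 0. As shares these are 82.2% and 48.9%, 80% and 8.89%, 84.4% and 8.89%, and 35.6% and 0%. The shares over all 46665 regions in the same order were 72.4% and 46.4%, 56.7% and 10.9%, 74.6% and 5.92%, and 30.2% and 2.14%. All libraries but replicate 2 of siControl and of siMena thus listed a larger share of the 45 regions than of all regions, and siMena replicate 2 listed none of the 45. The 45 regions had a median width of 522 bp against 394 bp over all regions, and were listed in a median of 4 libraries against 3. Single-library regions made up 8 of 45, against a background of 31.2% of all regions.

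**Figure D1:**
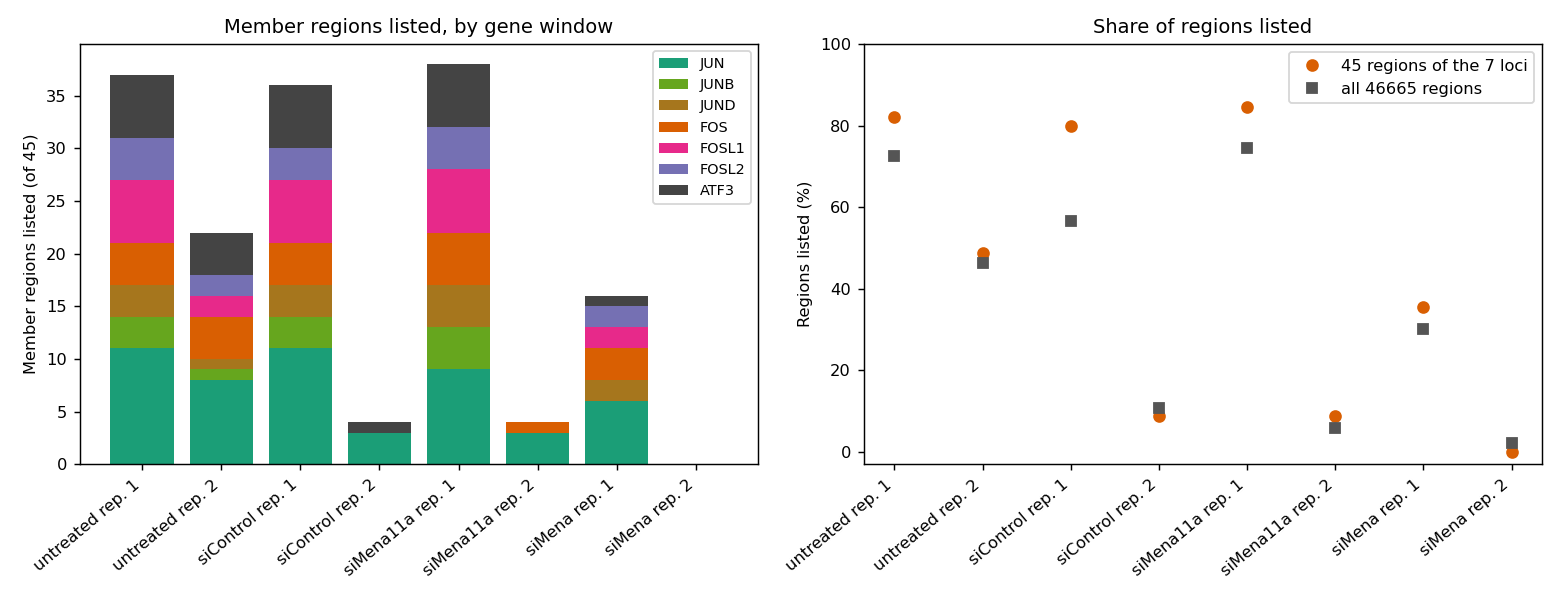
Left, number of the 45 regions listed in each library (bars, stacked by gene window). Right, percentage of the 45 regions (circles) and of all 46665 regions (squares) that each library lists. Circles lie above squares in all libraries but replicate 2 of siControl and of siMena, and the siMena replicate 2 circle is at 0.

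The loci differed in how dense, how strong and how often listed their regions were. FOSL1 had 14 regions per 100 kb of window and JUNB 10, JUND and ATF3 6.67 each, JUN 6, FOS 5 and FOSL2 3.08. By the highest fold within a list, JUN came first and FOS second in untreated replicate 2 and in replicate 1 of the 3 siRNA groups, with 14.3 and 10.1 in siControl replicate 1 for example. In untreated replicate 1 FOS, at 12.8, stood above JUN, at 11.8. By the median fold within a list FOS was not near the top throughout: in siMena11a replicate 1 it was 4.57, against 7.97 at JUN, 6.53 at ATF3 and 5.74 at FOSL2. The mean number of libraries per region was 4.25 at JUN, 4.2 at FOS, 3.75 at FOSL2, 3.25 at JUND, 3.14 at FOSL1, 3 at ATF3 and 2.2 at JUNB. The order of the loci thus depended on the measure. These orders rest on 4 to 12 regions per window and carry no test.

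**Figure D2:**
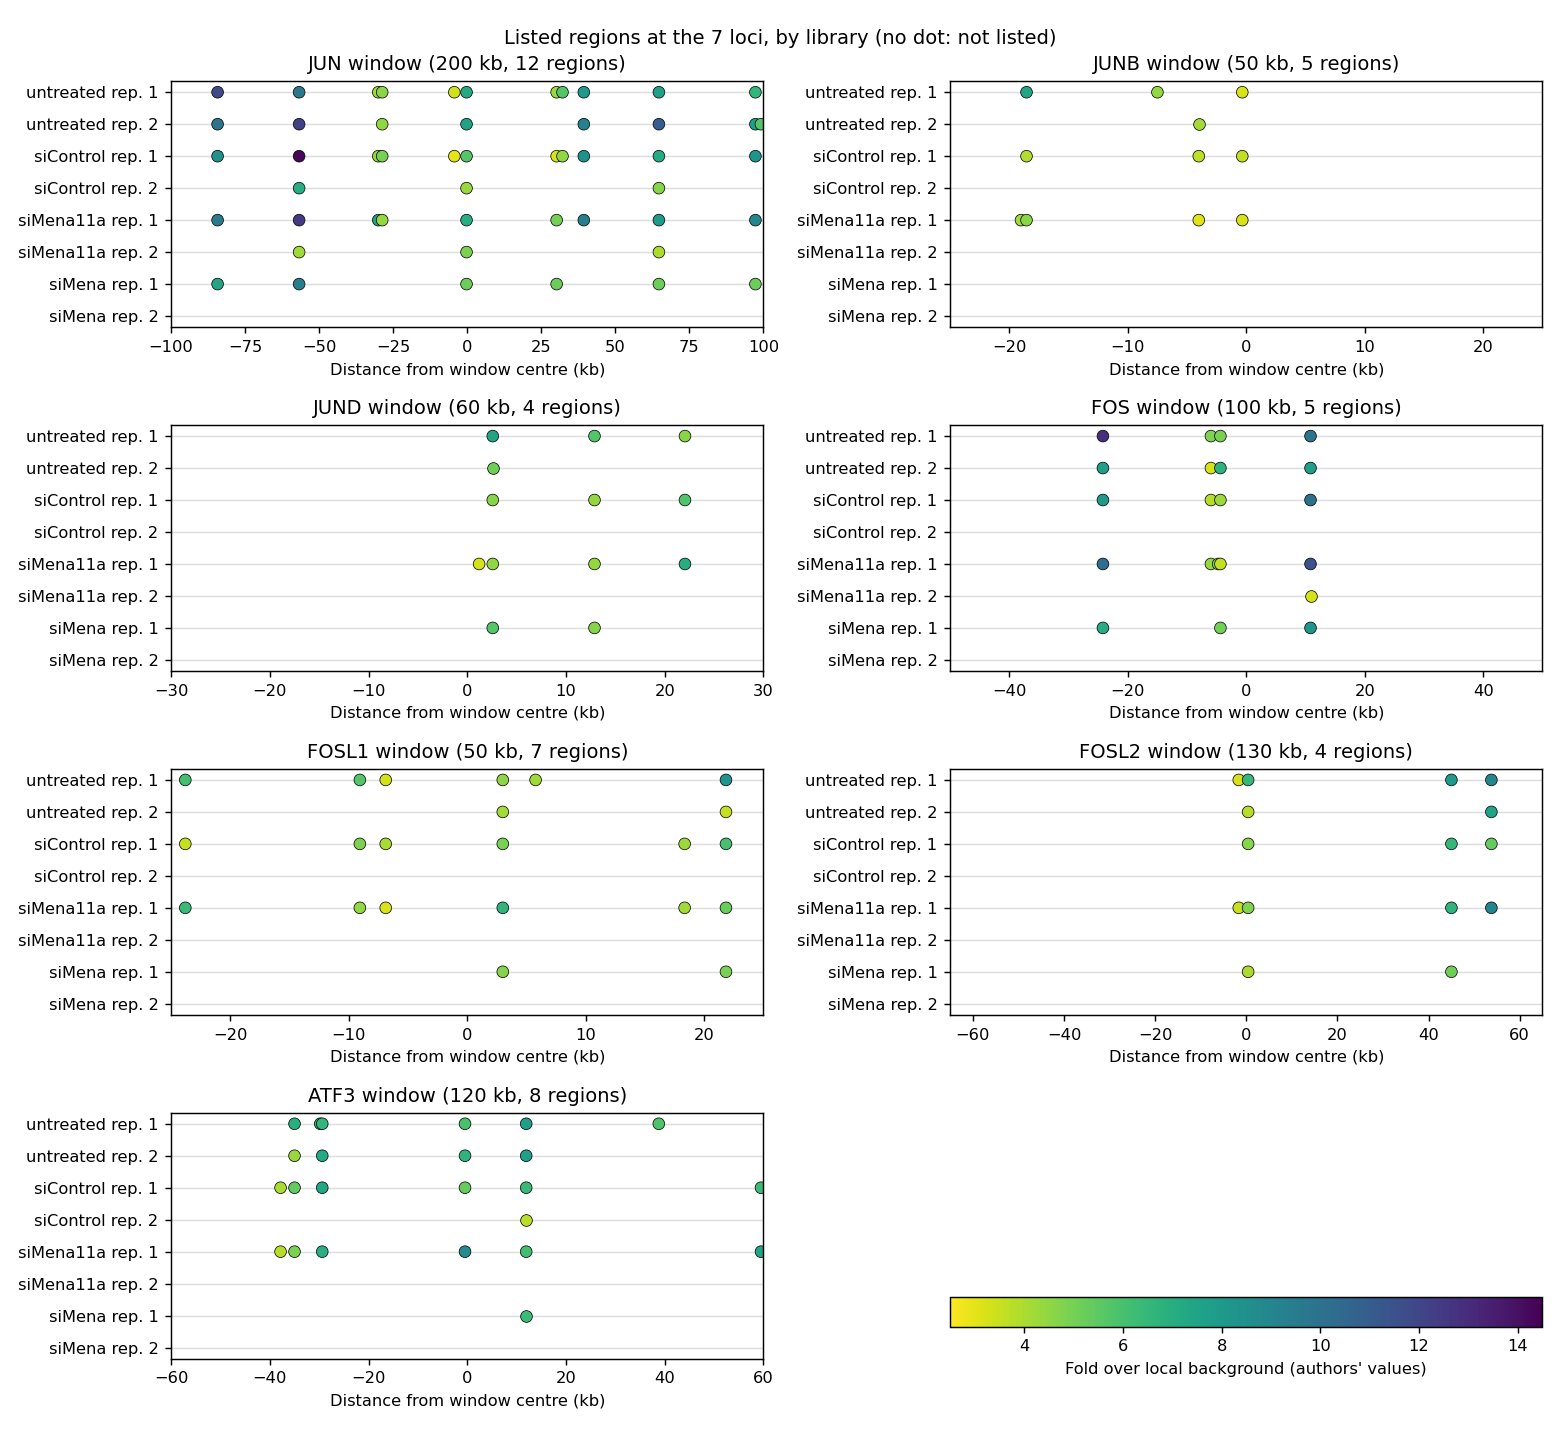
Regions listed in each library (rows) at the 7 windows, by distance from the window's centre in kb. The colour of a dot is the authors' fold over local background, and no dot means not listed. JUN has columns of dots in 7 rows at 3 places, and JUNB has none in siMena replicate 1 or in replicate 2 of any siRNA group.

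JUN can pair with itself or with any FOS protein. The 3 regions of the 45 that were listed in 7 libraries, all but siMena replicate 2, all lay in its window. Over all regions 4.34% were listed in 7 or more libraries and 1.16% in all 8, which none of the 45 were. The region chr1:59192898-59193563, 56.8 kb below the centre of the window, had the highest fold of the 45. Its fold was 9.76 and 12.2 in untreated replicates 1 and 2, 14.3 and 7.04 with siControl, 12.5 and 4.23 with siMena11a, and 9.46 with siMena replicate 1. Within each list it ranked at the 82.9th percentile of fold or above, except in siMena11a replicate 2, where it ranked at the 34.4th. Its summits lay within 105 bp of each other in the 7 lists. The number of tags at the summit was 23 and 40, 41 and 22, 34 and 14, and 20 in the same order. The 22 tags of siControl replicate 2 and the 14 of siMena11a replicate 2 have exact Poisson 95% intervals of 13.8 to 33.3 and 7.65 to 23.5, which overlap and cover counting error only. The replicates of siControl and of siMena11a differed more in fold than the 4 groups did within replicate 1.

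The region chr1:59249363-59250150, at the centre of the JUN window, showed a different profile. It had the most tags of the 45 in each of the 7 lists, with 49 and 47 in untreated cells, 51 and 23 with siControl, 68 and 26 with siMena11a, and 34 with siMena replicate 1. Its fold was moderate, 7.27 and 7.48, 5.69 and 4.35, 7.07 and 4.87, and 5.21. The local background against which the caller set it was high, from 4.52 to 8.76 tags, where the genome-wide background was 0.538 to 2.54 in the same libraries. A fold is tags plus 1 over local background plus 1, so many tags over a high local background give a moderate fold. Why the local background was high here was not tested.

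The third region, chr1:59314345-59315079, lay 64.7 kb above the centre. Its fold was 7.65 and 11 in untreated cells, 7.14 and 4.66 with siControl, 7.97 and 3.98 with siMena11a, and 5.17 with siMena replicate 1. It had 14 tags in untreated replicate 1 and 44 in untreated replicate 2, against 8 to 21 in the other 5 libraries. By tags the untreated pair thus spanned a wider range than the other 5 libraries, but by fold it did not. Local background in untreated replicates 1 and 2 was 0.96 and 3.08 tags. Of the other 9 JUN regions, 6 were listed in 3 to 5 libraries, 2 in 2 and 1, chr1:59348991-59349314, in untreated replicate 2 alone. Among those 9, chr1:59165387-59166028, which was singled out after its values were seen, had folds of 11.8 and 9.93 in untreated cells and, in replicate 1 alone, 8.44 with siControl, 9.55 with siMena11a and 7.46 with siMena.

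JUNB, which can restrain JUN and is often induced with it, had the weakest listing. Its 5 regions were listed in untreated replicates 1 and 2 at 3 and 1 places, in siControl replicate 1 at 3, in siMena11a replicate 1 at 4, and in none of the other 4 lists. Of its 3 most often listed regions, chr19:12886251-12886650 had folds of 7.41, 3.93 and 4.61 in replicate 1 of untreated cells, siControl and siMena11a. The region chr19:12900727-12901258 had 4.18 in replicate 2 of untreated cells, and 3.67 and 3.11 in replicate 1 of siControl and siMena11a, from 20, 27 and 30 tags. The region chr19:12904402-12904923 had 3.24, 3.62 and 3.24 in replicate 1 of untreated, siControl and siMena11a, from 15, 25 and 30 tags. The fold of the second was lowest where its tags were most, in siMena11a replicate 1.

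JUND, the JUN family member with steady expression in many cell types, had 1 region listed in 5 libraries, chr19:18392159-18393010. Its fold was 7.44 and 5.16 in untreated cells and, in replicate 1 alone, 4.69 with siControl, 4.48 with siMena11a and 5.73 with siMena. The region chr19:18402561-18403217 had 5.74, 4.46, 4.45 and 4.67 in the 4 replicate 1 libraries in the same order of groups. The region chr19:18411830-18412279 had 4.62, 5.81 and 7.06 in replicate 1 of untreated, siControl and siMena11a and was not listed with siMena. By these folds the first 2 were highest in untreated cells and the third in siMena11a cells. Folds were also divided by the library's median fold at the 501 regions found in all 8 lists. The first region then had 0.635 in untreated and 0.623 in siMena replicate 1. The second had 0.49 and 0.507, so its order turned, and the third stayed highest in siMena11a.

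FOS, the prototype partner of JUN, had 1 region in 6 libraries and 2 in 5. The region chr14:75760540-75761154 had folds of 9.94 and 7.75 in untreated cells, 10.1 in siControl replicate 1, 11.5 and 3.27 in siMena11a replicates 1 and 2, and 8.18 in siMena replicate 1. The region chr14:75725399-75726203 had 12.8 and 7.75 in untreated cells and, in replicate 1 alone, 8.02 with siControl, 10.2 with siMena11a and 7.1 with siMena. These 2 had the highest folds of the window in every library that listed them, with 22 to 53 tags in replicate 1. The region chr14:75745380-75745890, between them, had 4.9 and 6.76, 4.33, 3.62 and 5.05 in the same order as the second. FOS had no region in siControl replicate 2 and 1 in siMena11a replicate 2.

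FOSL1, which encodes the FOS family member FRA-1 known from invasive epithelial tumours, had 2 regions in 5 libraries. The region chr11:65686442-65687238 had folds of 8.33 and 3.57 in untreated cells and, in replicate 1 alone, 6.06 with siControl, 5.25 with siMena11a and 4.91 with siMena. The region chr11:65667744-65668258 had 4.55 and 4.17, 4.95, 6.65 and 4.75 in the same order. The third named by the same rule, chr11:65640939-65641462, had 6.14, 3.57 and 6.36 in replicate 1 of untreated, siControl and siMena11a. The untreated replicates of the first region differ by more than any pair of its treatments within replicate 1.

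FOSL2, which encodes FRA-2, had 4 regions. The region chr2:28614959-28615856 was listed in 5 libraries, with folds of 6.44 and 3.77 in untreated cells and, in replicate 1 alone, 4.62 with siControl, 4.79 with siMena11a and 3.97 with siMena. The region chr2:28668491-28669093 had 8.96 and 7.49 in untreated cells, 5.34 in siControl replicate 1 and 9.06 in siMena11a replicate 1. The region chr2:28659423-28660622 had 7.96, 6.5, 6.68 and 5.14 in the 4 replicate 1 libraries, with siMena the lowest. At the 3 regions listed in replicate 1 of both siControl and untreated cells, the siControl fold was the lower. This was common, since over all regions listed in both, the siControl fold was the higher at 26.9%.

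ATF3 had 8 regions, of which 1 was listed in 6 libraries and 3 in 4. The region chr1:212781536-212782345 had folds of 7.77 and 7.73 in untreated cells, 6.37 and 3.74 with siControl, 6.14 in siMena11a replicate 1 and 6.34 in siMena replicate 1. It was the sole ATF3 region in either siMena list. The region chr1:212740453-212740797 had 6.59 and 7.26 in untreated cells, 7.34 in siControl replicate 1 and 6.92 in siMena11a replicate 1, a narrow range. The region chr1:212769051-212770043 had 6.02 and 6.76, 5.3 and 8.81 in the same order. Of the other 5, 2 were listed in untreated replicate 1 alone, and 2 in replicate 1 of siControl and siMena11a alone. The last 2, with 1 region at FOSL1, make 3 of 45 that were listed in both of these libraries and in neither untreated library, against a background of 2.66%. They were singled out after their values were seen. siMena replicate 1, also transfected, listed none of the 3, but it listed 16 of the 45 in all. Replicate 2 of siControl, siMena11a and siMena, which listed 4, 4 and 0 of the 45, held none of the 3 either.

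**Figure D3:**
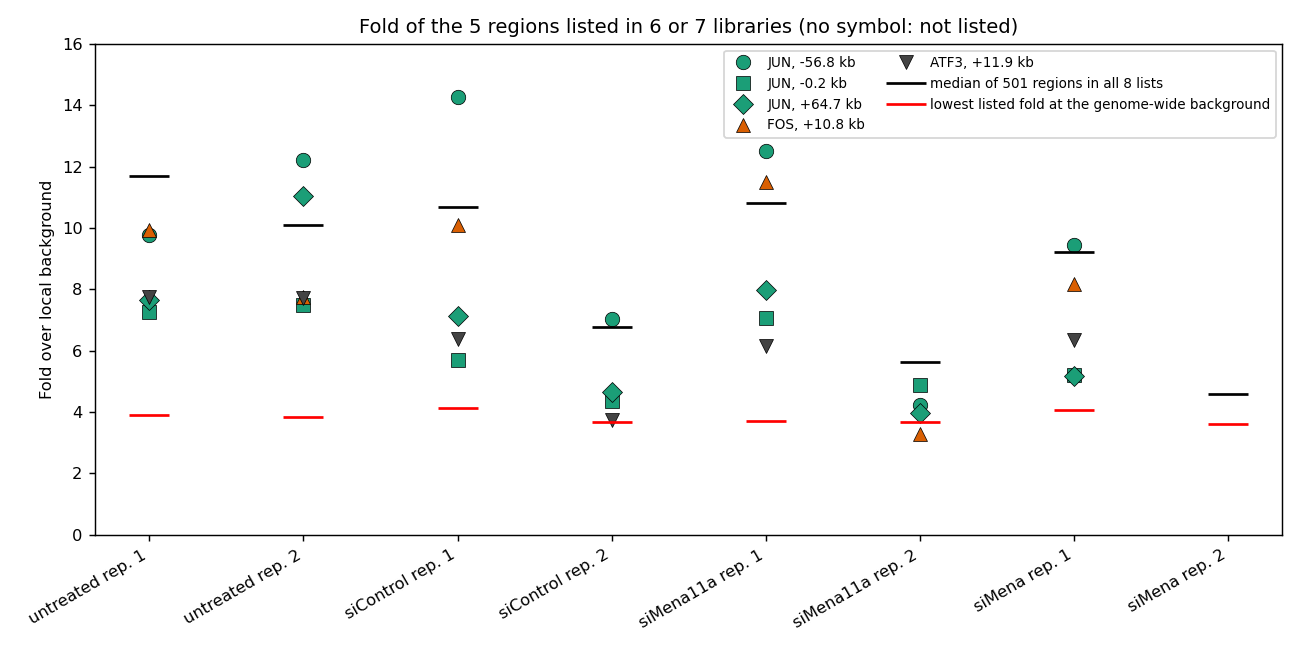
Authors' fold over local background of the 5 regions listed in 6 or 7 libraries (symbols, by gene and distance from the window's centre), by library. Black bars are the median fold of the 501 regions found in all 8 lists on the assembled chromosomes, and red bars the lowest listed fold among peaks set against the genome-wide background. Replicate 2 of siControl and siMena11a lies between 3.27 and 7.04, below the replicate 1 values of the same regions. The FOS value of 3.27 lies below its red bar because its local background was above the genome-wide one.

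No AP-1 or ATF3 region was gained or lost in any of the 4 comparisons, though some of these counts could only be 0. A region counted as gained where both libraries of the first group listed it and neither of the second did, and as lost in the opposite case. For siMena11a against siControl 0 of 45 were gained and 0 lost, against a background of 0.0279% and 0.0557% of all regions. For siMena against siControl both counts were 0, against 0.00214% and 1.03%. For siControl against untreated both were 0, against 0.12% and 3.65%. For siMena11a against siMena both were 0, against 0.24% and 0.00643%. Listed in all 4 libraries of a comparison were 3 regions for siMena11a against siControl (background 4.43%), 0 for siMena against siControl (1.36%), 4 for siControl against untreated (9.33%) and 0 for siMena11a against siMena (1.28%). No test per region was run, since an exact permutation of 2 libraries against 2 cannot reach 0.05. As siMena replicate 2 listed 0 of the 45, none could count as gained with siMena or as lost in siMena11a against siMena. Nor could any be listed in all 4 libraries of either siMena comparison. Both siControl libraries listed 4 of the 45, as did both siMena11a libraries, so calls that need either pair could not exceed 4. The counts of 0 also rest on single libraries. Without siControl replicate 2, 20 regions counted as lost with siMena, where 28.1% of all regions did. Without siMena11a replicate 2, 22 counted as gained against siMena, where 45.3% did. Without siControl replicate 1, 16 counted as lost against untreated cells, where 27.7% did.

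The mean number of listed regions per library could not separate the groups by the tests used, with 2 libraries each. It was 29.5 ± 10.6 in untreated cells, 20 ± 22.6 with siControl, 21 ± 24 with siMena11a and 8 ± 11.3 with siMena (SD, n = 2 each). By a two-sided exact permutation test, siMena11a minus siControl was 1 (p = 1). By the same exact test siMena minus siControl was -12, siControl minus untreated -9.5 and siMena11a minus siMena 13 (p = 0.667 each). The smallest p that 6 arrangements of 2 against 2 allow is 0.333, so these exact tests cannot reach 0.05. Each difference is smaller than the larger of the SDs of its groups. Those SDs hold the gap between replicates 1 and 2, such as 36 and 4 listed regions with siControl. They thus do not measure the scatter within a replicate number. The sign turned when 1 library was left out: to -16 for siMena11a minus siControl without siMena11a replicate 1 and to -15 without siControl replicate 2, to 4 for siMena minus siControl without siControl replicate 1, to 6.5 for siControl minus untreated without siControl replicate 2, and to -4 for siMena11a minus siMena without siMena11a replicate 1. Leaving out 1 library sets 1 replicate number against the mean of both, so replicate number enters these turns. Within replicates 1 and 2 alone, added after seeing the data with 1 library a group, siMena minus siControl was -20 and -4. In the same order siMena11a minus siMena was 22 and 4, siControl minus untreated -1 and -18, and siMena11a minus siControl 2 and 0.

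Within replicate 1, siMena11a and siControl listed nearly the same AP-1 regions. Of the 36 regions in siControl replicate 1, 34 were also in siMena11a replicate 1 (94.4%, against 89% of all its regions). The 4 listed with siMena11a alone, against a background of 24.2%, lay 1 each at JUNB, JUND, FOS and FOSL2, and the 2 listed with siControl alone, against 6.25%, both at JUN. Within replicate 2, 3 JUN regions were listed in both, 1 FOS region with siMena11a alone (background 1.03%) and 1 ATF3 region with siControl alone (5.97%).

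Within replicate 1, siMena listed fewer AP-1 regions than siControl, as it did elsewhere. All 16 regions of siMena replicate 1 were also in siControl and in siMena11a replicate 1, where 94% and 96.5% of all its regions were. No AP-1 region was in siMena replicate 1 and not in siControl replicate 1 (background 1.81%). The 20 regions in siControl alone, against a background of 28.2%, were 5 at JUN, 3 at JUNB, 1 at JUND, 1 at FOS, 4 at FOSL1, 1 at FOSL2 and 5 at ATF3. Thus siMena replicate 1 listed 16 of 36 (44.4%, against 50.2% of all siControl regions), 6 of 11 at JUN, 3 of 4 at FOS, 1 of 6 at ATF3 and 0 of 3 at JUNB. These had the higher folds in siControl replicate 1, a median of 6.22 against 4.43 for the 20 not listed, and over all regions the medians were 7.67 and 5.66. In replicate 2, 4 regions were in siControl alone (background 9.06%) and 0 in siMena alone (0.326%).

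Against siMena, siMena11a replicate 1 alone listed 22 regions (background 45.5%) and siMena replicate 1 alone listed 0 (1.07%). In replicate 2 these counts were 4 (4.18%) and 0 (0.39%). Against untreated cells, siControl replicate 1 alone listed 4 regions (6.93%) and untreated replicate 1 alone 5 (22.7%), and 32 of 37 untreated regions were shared (86.5%, against 68.7%). Replicate 2 gave 0 (1.07%) and 18 (36.6%), so that the same comparison went from a near balance to one side between replicates. These 2 comparisons share their siMena11a or siControl libraries with the 2 above. Between untreated replicates, 20 of the 37 regions of replicate 1 were also in replicate 2 (54.1%, against 51.4%).

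At regions listed in both replicate 1 libraries, the fold ratios of the AP-1 loci lay near those of all regions. The median log2 ratio of folds for siMena11a over siControl was 0.09 over 34 regions, 19 of them above 0, against 0.13 over all regions, 65.5% of them above 0. For siMena over siControl it was -0.18 over 16 regions, 4 above 0, against -0.29 and 19%. For siControl over untreated it was -0.26 over 32 regions, 11 above 0, against -0.21 and 26.9%. For siMena11a over siMena it was 0.37 over 16 regions, 11 above 0, against 0.41 and 88%. In each comparison the AP-1 median had the sign of the median over all regions, and comparisons that share a library are not independent of each other.

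Counted against the median of all regions in siMena11a over siControl, 16 of the 34 regions lay above it. By gene these were 6 of 9 at JUN, 1 of 3 at JUNB, 1 of 3 at JUND, 3 of 4 at FOS, 2 of 6 at FOSL1, 1 of 3 at FOSL2 and 2 of 6 at ATF3. In siMena over siControl, 10 of the 16 lay above the median of all regions: 3 of 6 at JUN, 2 of 2 at JUND, 2 of 3 at FOS, 1 of 2 each at FOSL1 and FOSL2, and 1 of 1 at ATF3. The JUND log2 ratios were 0.07 and 0.29. The JUND pair, singled out after its values were seen, thus had the opposite sign to the median over all regions, from 2 regions and 1 library a group. Opposite signs also occurred in siMena11a over siControl in replicate 1, where the median over all regions was 0.13. There the gene medians were -0.16 at JUNB, -0.09 at FOSL1, -0.07 at ATF3 and -0.002 at JUND, and above 0 at JUN, FOS and FOSL2. In replicate 2 the ratio could be taken at 3 JUN regions for siMena11a over siControl, with a median of -0.23 against -0.16 over all regions, the opposite sign to replicate 1. For siControl over untreated it could be taken at 4 regions, with a median of -0.92 against -0.68. No ratio could be taken for siMena in replicate 2, where no region of the 7 loci was listed.

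**Figure D4:**
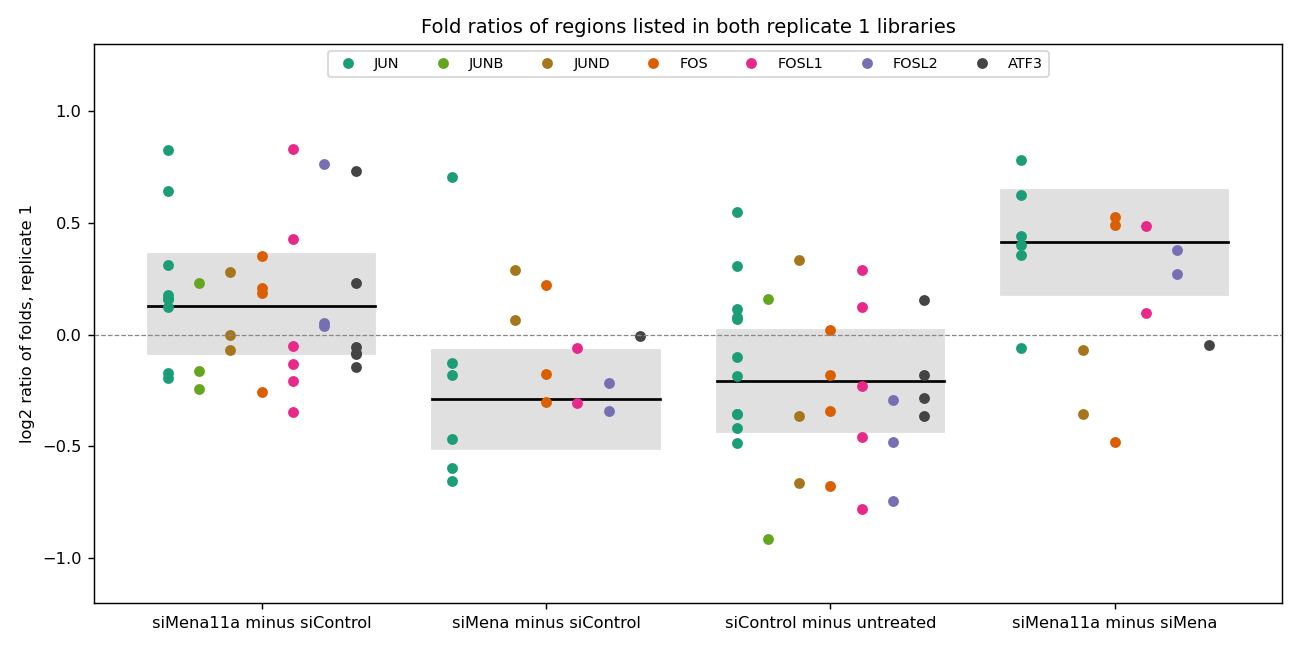
log2 ratio of the authors' folds in replicate 1 of the groups named (points, coloured by gene) at regions listed in both libraries. Black lines are the median and grey boxes the middle 50% of all regions listed in both. The points scatter on both sides of the black line in all 4 comparisons.

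In 6 of the 7 lists that held any, the AP-1 regions had a higher median rank by tags than by fold, and siMena11a replicate 2 had the reverse order. The median tag percentile in replicate 1 was 58.6 for untreated cells, 57 for siControl, 67 for siMena11a and 59.3 for siMena, whereas the median fold percentile was 35.9, 20.4, 22 and 27.8. The median local background of the AP-1 regions was 1.86, 3, 3.55 and 2.25 tags in these libraries, against 1.22, 1.96, 1.92 and 1.52 over all listed regions. Both were taken at the summit of highest fold in each region. In untreated replicate 2 the 2 percentiles were closer, at 71.2 by tags and 66.2 by fold. In siControl replicate 2 they were 44.7 and 36.7, and in siMena11a replicate 2 they were 9.4 and 29.6, each over 4 regions. Where the AP-1 regions were placed within a list thus depended on the measure, with the local background entering one and not the other.

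**Figure D5:**
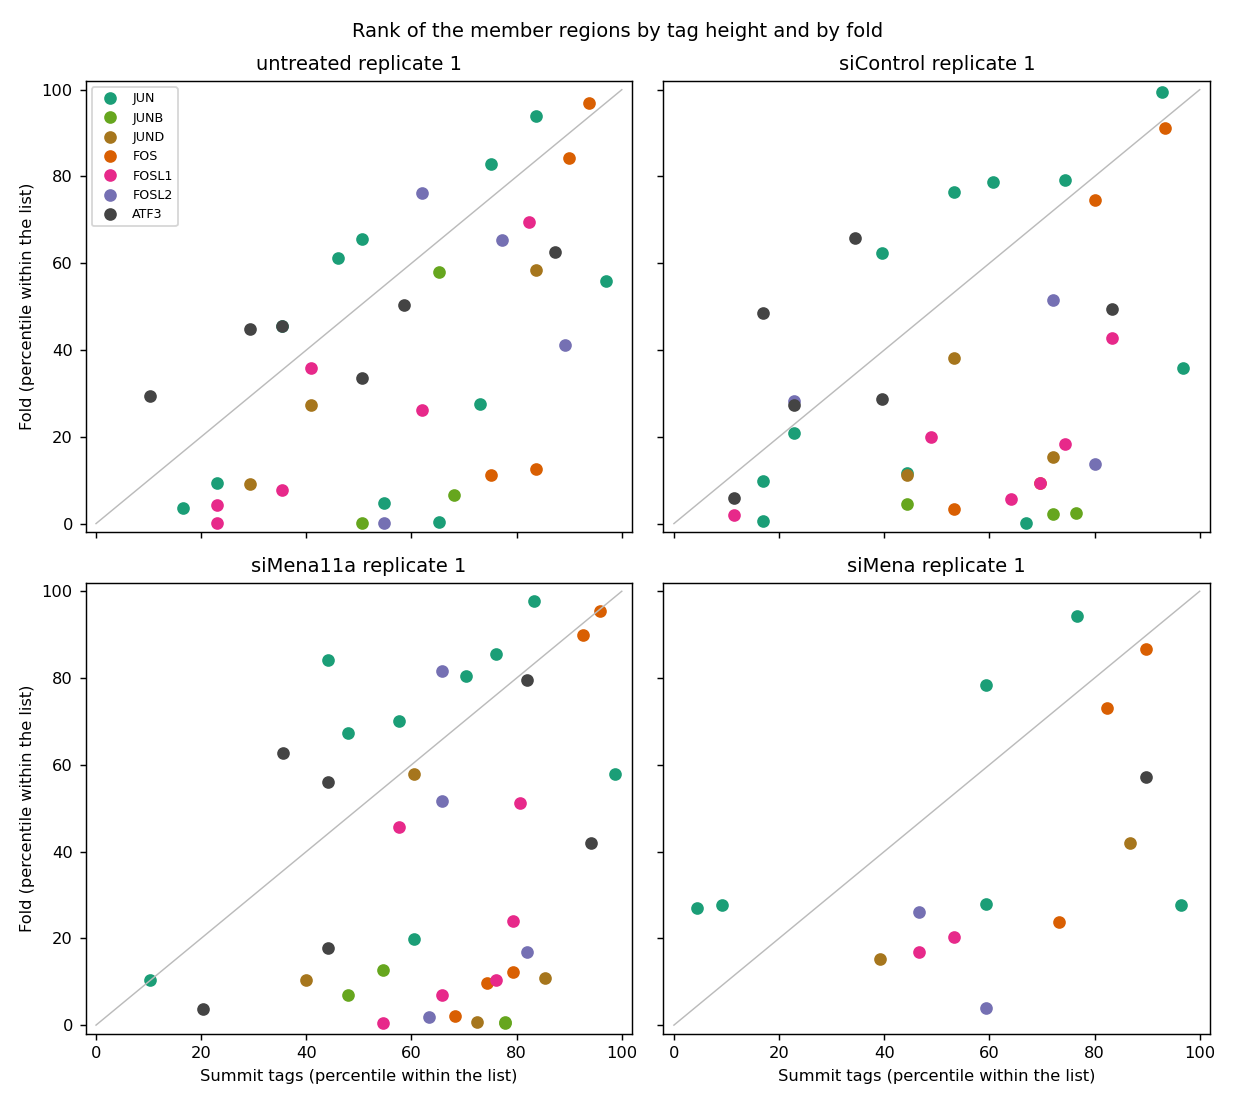
Percentile within the list of each AP-1 or ATF3 region by summit tags (x axis) and by fold (y axis) in the 4 replicate 1 libraries, coloured by gene. The grey line marks equal ranks. Most points lie below the line, and the medians by fold run from 20.4 to 35.9.

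The summits of a region lay close to each other between libraries. Of the 37 regions listed in 2 or more libraries, 30 had all summits within 200 bp, with a median span of 109 bp and a range from 6 to 529 bp.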

How the data were processed

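Per the submitters' processing notes, FastQC 0.11.5, Bowtie2 2.3.4.2, SAMtools 1.7, MACS2 2.2.5 and hg19 were used; trimming, duplicate filters and the transposase shift are not given in the sources used here. The authors deposited 1 peak list per library. The deposited score was 10 times −log10 q, rounded down, in at least 99.98% of rows of each list, and each list ended at a q of 0.01. The deposited −log10 p and −log10 q and the deposited fold (the authors' ratio of summit tags plus 1 to local background plus 1) come from the peak caller, and folds were only described, ranked or set side by side.

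Tags and local background at each summit were recovered from fold and −log10 p with the Poisson formula, within 0.001 of the deposited −log10 p. No read totals were used, and the genome-wide background served as depth. Peaks were merged, and 1 bp of overlap counted as listed. A two-sided exact permutation test compared group means. Code was tested on simulated data. The members and lists were chosen with earlier results of these data known. In each window the regions in the most libraries were named (at most 3, ties by median fold percentile), with all gained, lost or listed in all 8, of which there were 0. Other AP-1 genes, cell type markers and peak sequences need hg19 annotation or sequence and were not analysed here. Alternatives were shortened lists, a score of at least 50, 50% overlap, the middle 50% of each window, leaving out each library, the replicate block and, added after seeing the data, each replicate alone. Tools were SciPy 1.17.1, pandas 2.3.3, numpy 2.4.6 and matplotlib 3.10.9 under Python 3.11.15.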

Additional observations from a re-analysis of the deposited data

How the results depend on the processing

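The counts of AP-1 regions rest on single libraries. Leaving out each library in turn, the difference in listed regions ranged from -16 to 18 for siMena11a minus siControl, -28 to 4 for siMena minus siControl, -25.5 to 6.5 for siControl minus untreated and -4 to 30 for siMena11a minus siMena. The sign turned without siMena11a replicate 1 (-16) or siControl replicate 2 (-15) in the first, without siControl replicate 1 (4) in the second, without siControl replicate 2 (6.5) in the third and without siMena11a replicate 1 (-4) in the fourth. Each of these sets a lone replicate against the mean of both replicates of the other group, so replicate number enters the turns. Gained and lost counts ranged from 0 to 4 and 0 to 2, 0 and 0 to 20, 0 to 3 and 0 to 16, and 0 to 22 and 0. The highest, each with the share of all regions called the same way, came without siMena11a replicate 2 (4, 24%) and siControl replicate 2 (2, 6.14%), without siControl replicate 2 (20, 28.1%), without siControl replicate 2 (3, 5.55%) and replicate 1 (16, 27.7%), and without siMena11a replicate 2 (22, 45.3%). Without siMena replicate 2, 3 JUN regions were in all lists (4.16% of all regions). Shortened lists gave 1 region gained with siMena11a against siControl (0.197% of all regions) and 2 lost with siControl against untreated (0.463%), and a score of 50 gave 1 lost with siMena (0.981%). Replicate 1 alone, added after seeing the data, gave 4 gained and 2 lost, 20 lost, 4 gained and 5 lost, and 22 gained, and replicate 2 alone gave 1 and 1, 4 lost, 18 lost and 4 gained. Over all regions these were 24.2% and 6.25%, 28.2%, 6.93% and 22.7%, and 45.5% with replicate 1, and 1.03% and 5.97%, 9.06%, 36.6% and 4.18% with replicate 2. Fewer libraries make a gain or loss easier to meet; the cause of the other shifts was not tested.

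With the replicate number as a block, the exact p was 1 for siMena11a against siControl and 0.5, the smallest possible, for the other 3. Replicate differences correlated at 0.23 to 0.35 between the siRNA groups and at -0.07 to 0.096 between these and untreated cells. The numbers were not taken as pairing, although libraries of the same number were set side by side as a description. The genome-wide background stood in for depth, and whether depth limits the short lists was not tested.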
